A study of Mus musculus with 12 samples.

Results

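Vascular endothelial growth factors (VEGFs) and their receptors were followed in brain endothelial cells (BECs) that carried or lacked the neuropeptide gene Cort. The set held 9 genes, chosen by symbol for their place in the pathway: the ligands Vegfa, Vegfb, Vegfc and Pgf, the receptor tyrosine kinases Flt1, Kdr and Flt4, and the co-receptors Nrp1 and Nrp2. All 9 were present among the 29965 genes listed for one environment, among the 29775 of the other and among the 27321 listed for both. RNA-seq was performed on primary BEC cultures from brains of C57BL/6 mice of 8 weeks of age, each library made from a pool of 3 mice. Cort+/+ and Cort-/- BECs were kept for 24 h either in normoxia with glucose (NX/NG, 21% oxygen and 5.5 mM glucose) or in oxygen and glucose deprivation followed by reoxygenation (OGD-R, 4 h at 1% oxygen without glucose and then 20 h of reoxygenation). The labels also assign every sample to a mouse model of ischemic stroke, although the cultures were exposed in vitro. Values came from 3 Cort+/+ and 2 Cort-/- libraries per environment. The third Cort-/- library was not analysed here, replicate 3 for NX/NG and replicate 2 for OGD-R. The deletion was present in the whole animal from which the cells came, so a difference between genotypes covers both the life of the mouse and the culture.

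VEGF ligands are secreted dimers. VEGF-A, encoded by Vegfa, drives endothelial growth, migration and permeability through VEGFR2 (Kdr), while VEGFR1 (Flt1) binds VEGF-A, VEGF-B and PlGF (Pgf) tightly and, in its soluble form, acts as a decoy. VEGF-C activates VEGFR3 (Flt4), best known from lymphatic and sprouting endothelium, and the neuropilins Nrp1 and Nrp2 present VEGFs to these kinases and also serve as receptors of class 3 semaphorins. Hypoxia induces Vegfa in most cells, and in the brain VEGF signals govern both vessel growth and the leakiness of the blood-brain barrier after ischemia.

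The promoter windows of 4 members are shown because Vegfa, Nrp1 and Flt4 were the members whose genotypes separated under NX/NG, whereas Kdr, the main signalling receptor, did not. They were taken from RefSeq on build GRCm38.p6 and run 5′ to 3′ on the gene's strand, from 250 bases before the transcription start to 50 bases after it. Capitals mark matches on either strand to the GC box, searched as GGGCGG. They also mark the core of the hypoxia response element, searched as ACGTG. The other spelling of that core was searched as GCGTG.
Vegfa, chr17:46032328-46032627, minus strand: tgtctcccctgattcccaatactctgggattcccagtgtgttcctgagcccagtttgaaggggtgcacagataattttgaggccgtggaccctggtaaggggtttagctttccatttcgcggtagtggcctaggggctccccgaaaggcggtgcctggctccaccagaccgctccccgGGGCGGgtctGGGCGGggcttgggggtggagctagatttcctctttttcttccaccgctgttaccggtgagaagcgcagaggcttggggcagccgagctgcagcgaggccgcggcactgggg
Nrp1, chr8:128358823-128359122, plus strand: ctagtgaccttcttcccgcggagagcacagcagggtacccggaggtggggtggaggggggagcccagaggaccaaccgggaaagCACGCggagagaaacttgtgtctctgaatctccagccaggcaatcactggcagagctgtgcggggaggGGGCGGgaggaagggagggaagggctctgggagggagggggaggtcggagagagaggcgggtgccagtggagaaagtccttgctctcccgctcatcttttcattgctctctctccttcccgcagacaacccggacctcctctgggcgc
Flt4, chr11:49609429-49609728, plus strand: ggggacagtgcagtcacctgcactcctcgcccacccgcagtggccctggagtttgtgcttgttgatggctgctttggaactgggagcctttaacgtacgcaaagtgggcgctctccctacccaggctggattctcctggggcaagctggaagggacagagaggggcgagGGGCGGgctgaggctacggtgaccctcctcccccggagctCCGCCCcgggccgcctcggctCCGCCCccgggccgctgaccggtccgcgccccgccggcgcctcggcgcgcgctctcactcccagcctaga
Kdr, chr5:75978406-75978705, minus strand: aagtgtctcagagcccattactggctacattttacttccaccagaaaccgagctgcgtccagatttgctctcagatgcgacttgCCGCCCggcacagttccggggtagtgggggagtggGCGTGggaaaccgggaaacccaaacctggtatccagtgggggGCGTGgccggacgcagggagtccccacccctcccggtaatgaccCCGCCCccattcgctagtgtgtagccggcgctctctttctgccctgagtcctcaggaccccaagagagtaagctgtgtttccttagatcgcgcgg
The GC box occurred 2 times in the Vegfa window, 1 time in that of Nrp1, 3 times in that of Flt4 and 2 times in that of Kdr, and 35.7% of 32851 promoter windows of this length hold at least 1 match. GCGTG occurred 1 time for Nrp1 and 2 times for Kdr, against 32.4% of all windows with a match. ACGTG was in none of the 4 windows and in 19.6% of all windows. All 9 members had a window in the table, and the 4 shown had a GC content of 62% (Vegfa), 64% (Nrp1), 70.3% (Flt4) and 60.7% (Kdr), against a median of 52.7% over all windows. RefSeq lists a further start for Vegfa, at chr17:46025114-46025413, whose window holds each spelling of the hypoxia core 1 time and the GC box 1 time. These matches are letters in a window, and binding was not measured. Bases outside the windows were not searched, so a missing match says nothing about sites farther from the start. Whether matched bases are regulatory or lie in coding sequence was not examined.

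Each library held 12386048 to 12390428 reads on genes, recovered from the deposited values. Whether libraries had been brought to a common depth before deposit is not given in the sources used here, so these totals are those of the deposited values and may not be the sequencing depth. In 8 libraries 7.64% to 15.8% of reads fell on the ribosomal RNA gene Rn18s-rs5, against 0.0951% in replicate 3 of the Cort-/- OGD-R group and 0.0775% in replicate 1 of its Cort+/+ counterpart. Cort itself gave 0 reads in each of the 4 Cort-/- libraries, which allows up to 3 reads per library, but also only 2, 1 and 1 reads in the Cort+/+ NX/NG libraries and 0, 0 and 1 in the Cort+/+ OGD-R libraries, so the deletion could not be checked at these totals. RPKM is the read number divided by gene length in kilobases and by a scaled library size. That scaling differed between libraries although their read totals were nearly equal. For example, 3 reads of Cort equal 0.323 RPKM in replicate 1 and 0.399 RPKM in replicate 2 of the Cort+/+ OGD-R group. The endothelial markers summed to 966 to 1428 RPKM. Of these, 9 of 10 averaged 1 RPKM or more in every group, and Mfsd2a, of the blood-brain barrier, lay below that. The lymphatic marker Prox1 stayed under 0.1 RPKM in every library, whereas Acta2 and Tagln, which mark smooth muscle and are also found in cultured endothelium, gave most of a smooth muscle sum of 995 to 1777 RPKM. In bulk RNA, fewer cells of a type and less RNA per cell cannot be told apart.

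Per length of transcript, Pgf was the most abundant of the 9 genes in every library. Among Cort+/+ BECs under NX/NG it averaged 122 ± 46.6 RPKM (SD, n = 3), above 97.8% of the 13746 genes that averaged 1 RPKM or more. Kdr followed at 20.01 ± 4.60, then Nrp1 at 16.4 ± 1.27, Flt4 at 14.3 ± 1.12, Nrp2 at 10.7 ± 0.976, Vegfb at 9.14 ± 0.460, Flt1 at 8.84 ± 1.32, Vegfa at 8.64 ± 1.41 and Vegfc at 1.15 ± 0.121 RPKM (SD, n = 3 each). Kdr and Nrp1, Nrp1 and Flt4, and Vegfb, Flt1 and Vegfa were neighbours in that order whose ranges overlapped. In Cort-/- BECs under NX/NG, Flt4 at 18.1 ± 0.107 RPKM stood above Nrp1 at 12.2 ± 0.0274 RPKM, and Vegfa at 5.07 ± 0.0289 RPKM stood below Flt1 at 8.62 ± 0.609 RPKM (SD, n = 2 each). Pgf made up 79.1% to 92.9% of the summed ligand RPKM in the 10 libraries, and Vegfa 2.33% to 11.4%. The ratio of Kdr to Flt1, both per length, lay between 1.40 and 2.50.

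**Figure D1:**
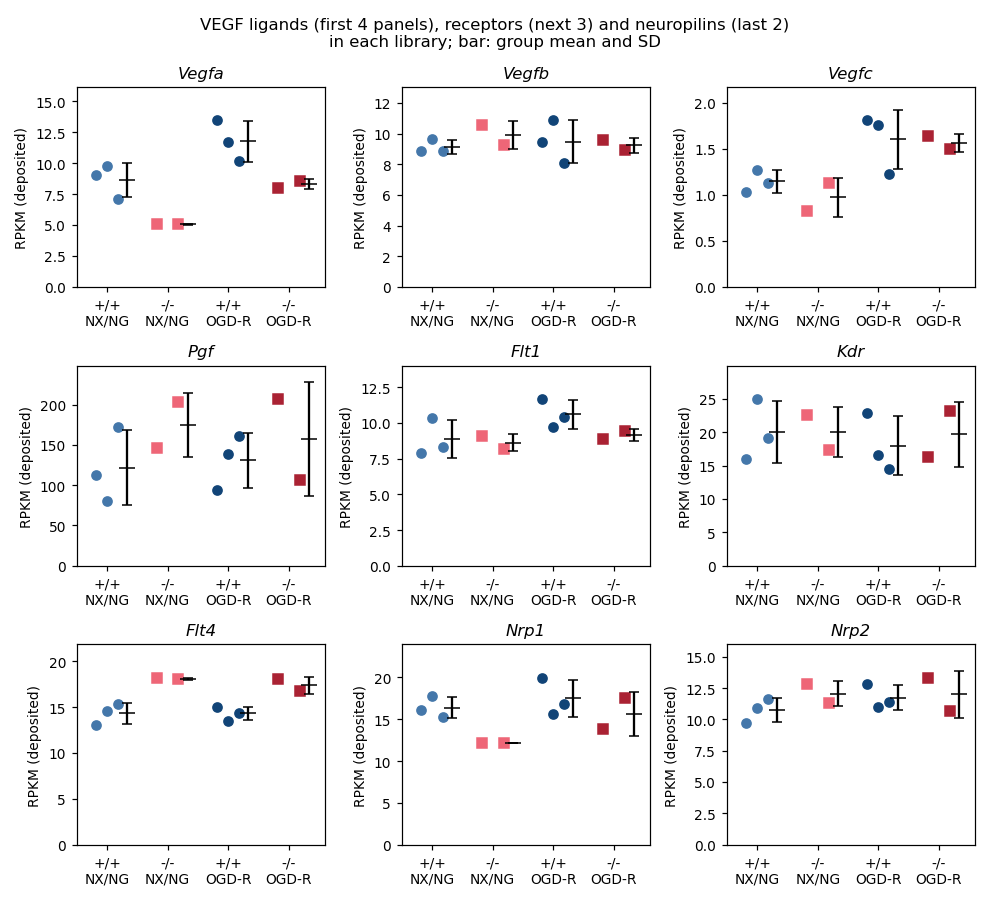
RPKM as deposited (vertical axes, each from 0) of the 9 VEGF genes in each of the 10 libraries, by genotype and environment; points are libraries, and the bar beside them is the group mean with its SD (n = 3 for Cort+/+, n = 2 for Cort-/-). Vegfa lay at 5.05 and 5.09 RPKM in Cort-/- BECs under NX/NG, below the 7.06 to 9.79 RPKM of Cort+/+ BECs, whereas Kdr and Pgf spread as widely within groups as between them.

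Vegfa was lower in Cort-/- BECs in both environments and higher after OGD-R in both genotypes, but none of these differences passed correction over all genes. Under NX/NG, Vegfa measured 9.06, 9.79 and 7.06 RPKM in the Cort+/+ libraries and 5.05 and 5.09 RPKM in the Cort-/- libraries. Its values under OGD-R were 13.5, 11.7 and 10.2 RPKM in Cort+/+ and 7.998 and 8.59 RPKM in Cort-/-. Both Cort-/- libraries lay below all 3 Cort+/+ libraries in each environment. The log2 fold change of Cort-/- over Cort+/+ under NX/NG was -0.74 ± 0.15 (SE), a fold of 0.597, with a 95% interval from -1.13 to -0.36 and a limma adjusted p of 0.304. With limma-voom on the recovered reads it was -0.76 and the adjusted p was 0.0655, and over all alternatives the adjusted p ran from 0.0655 to 0.641. Under OGD-R the log2 fold change was -0.49 ± 0.14 (SE, limma adjusted p = 0.978, range over alternatives 0.563 to 1.00), and -0.44 without the libraries low in ribosomal RNA, which left 1 Cort-/- library against 2 Cort+/+ libraries.

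The response of Vegfa to OGD-R was measured after all 10 libraries had been scaled together, which multiplied deposited values by 1.02 to 1.03 for NX/NG and by 0.974 to 0.975 for OGD-R. Vegfa gained 0.38 ± 0.15 on the log2 scale in Cort+/+ BECs (SE, limma adjusted p = 0.881) and 0.62 ± 0.096 in Cort-/- BECs (SE, limma adjusted p = 0.623). In Cort+/+ BECs, the lowest OGD-R library, 9.91 RPKM after joint scaling, overlapped with the highest NX/NG library at 10.01 RPKM. In Cort-/- BECs, both OGD-R libraries at 7.79 and 8.36 RPKM exceeded both NX/NG libraries at 5.19 and 5.24 RPKM. The genotypes' responses differed by 0.25 ± 0.21 on the log2 scale (SE, limma interaction, adjusted p = 1.00), with a 95% interval from -0.25 to 0.74. These 4 comparisons share libraries, so the values in one are not independent of those in the next.

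For the remaining ligands the genotypes overlapped in both environments. Vegfb, a ligand of Flt1, measured 8.89, 9.67 and 8.86 RPKM in Cort+/+ and 10.5 and 9.27 RPKM in Cort-/- BECs under NX/NG. Its OGD-R values were 9.44, 10.9 and 8.08 RPKM in Cort+/+ and 9.56 and 8.90 RPKM in Cort-/-. The genotypes overlapped both times, and the log2 fold change was 0.11 (95% interval -0.10 to 0.32) under NX/NG and -0.03 (-0.39 to 0.34) under OGD-R. Vegfc, a ligand of Flt4, had the fewest reads of the 9 genes, 25 to 61 per library. It measured 1.03, 1.27 and 1.13 RPKM in Cort+/+ and 0.827 and 1.12 RPKM in Cort-/- BECs under NX/NG, and 1.81, 1.76 and 1.23 RPKM against 1.64 and 1.496 RPKM under OGD-R. Its log2 gain after OGD-R was 0.37 ± 0.21 in Cort+/+ (SE, 95% interval -0.13 to 0.86) and 0.57 ± 0.25 in Cort-/- BECs (SE, -0.13 to 1.27). After joint scaling, both Cort-/- OGD-R libraries, at 1.46 and 1.59 RPKM, lay above both NX/NG libraries, at 0.850 and 1.16 RPKM, whereas Vegfb lay slightly lower after OGD-R, at 8.67 and 9.32 against 9.54 and 10.8 RPKM.

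Pgf, which encodes PlGF, varied more between libraries of one group than between groups. It measured 113, 79.8 and 172 RPKM in Cort+/+ and 147 and 203 RPKM in Cort-/- BECs under NX/NG. After OGD-R there were 93.5, 139 and 161 RPKM in Cort+/+ and 207 and 107 RPKM in Cort-/-. The lowest OGD-R value of each genotype came from its library low in ribosomal RNA, whose part was not tested. The genotypes overlapped in both environments. The log2 fold change of Cort-/- over Cort+/+ was 0.58 (95% interval -0.32 to 1.47) under NX/NG and 0.22 (-0.69 to 1.13) under OGD-R by limma, with adjusted p-values of 0.681 and 0.978. By limma-voom it was 0.59 under NX/NG, with a 95% interval apart from 0 (0.073 to 1.11) and an adjusted p of 0.381. With 3046 to 7497 reads per library, counting error was a small part of that spread. The 2 libraries with the most Pgf, both Cort-/- (replicate 2 of NX/NG, replicate 1 of OGD-R), were also the 2 with the most Cdh5 (VE-cadherin), at 681 and 740 RPKM against 443 to 592 RPKM in the others. Cdh5 was picked after its values had been seen, and its part in the spread of Pgf was not tested.

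**Figure D2:**
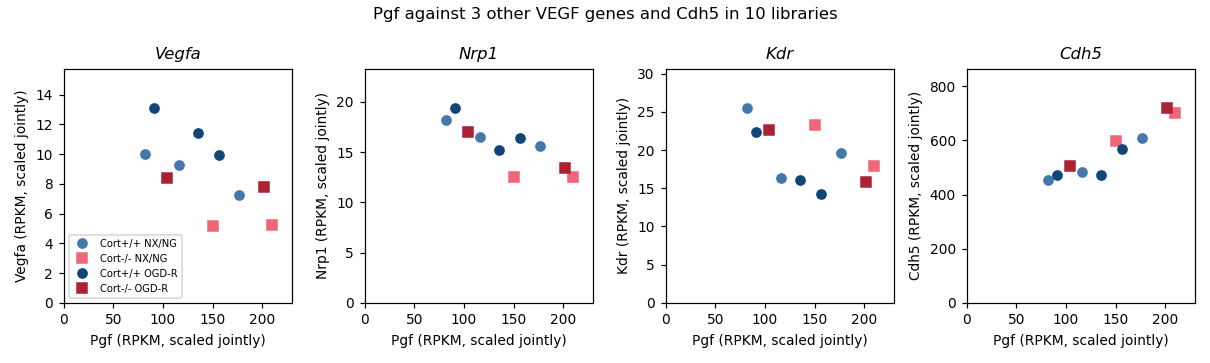
Pgf (horizontal axes) against Vegfa, Nrp1, Kdr and Cdh5 (vertical axes) in RPKM after joint scaling, with one point for each of the 10 libraries, blue circles for Cort+/+ and red squares for Cort-/-, with the darker shade for OGD-R. In each of the 4 groups the library with the most Pgf also held the most Cdh5, and the one with the least Pgf held the most Nrp1. For Cort-/- BECs under NX/NG the Nrp1 values, 12.52 and 12.49 RPKM, were nearly equal.

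Among the receptor kinases, libraries of the genotypes did not overlap for Flt4 in both environments and for Flt1 under OGD-R, and overlapped for Kdr. Flt4, which encodes VEGFR3, measured 13.1, 14.6 and 15.3 RPKM in Cort+/+ and 18.2 and 18.04 RPKM in Cort-/- BECs under NX/NG. Under OGD-R it measured 15.0, 13.5 and 14.4 RPKM in Cort+/+ and 18.01 and 16.7 RPKM in Cort-/-. All 4 Cort-/- libraries lay above all 6 Cort+/+ libraries. After joint scaling of the environments they lay at 16.3 RPKM or more against 15.7 RPKM or less. The share of all genes that separate this way over both environments was not counted. Within 1 environment, 32.7% (NX/NG) and 16.2% (OGD-R) of genes that reached 1 RPKM in 2 or more libraries did not overlap. The log2 fold change was 0.34 ± 0.078 under NX/NG (SE, limma adjusted p = 0.359) and 0.28 ± 0.090 under OGD-R (SE, limma adjusted p = 0.978). By limma-voom the adjusted p under NX/NG was 0.0833, and it ran from 0.0833 to 0.577 over all alternatives. OGD-R moved Flt4 little, by -0.07 in Cort+/+ (95% interval -0.26 to 0.12) and by -0.14 in Cort-/- BECs (-0.37 to 0.09) on the log2 scale.

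Kdr measured 15.9, 24.98 and 19.1 RPKM in Cort+/+ and 22.6 and 17.3 RPKM in Cort-/- BECs under NX/NG. Under OGD-R it measured 22.9, 16.5 and 14.6 RPKM in Cort+/+ and 16.2 and 23.2 RPKM in Cort-/-. The highest OGD-R value of each genotype came from its library low in ribosomal RNA, whose part was not tested. Under NX/NG, where no library was so low, Kdr ran from 15.9 to 24.98 RPKM. No group stood apart, and the log2 fold change of 0.01 under NX/NG carried a 95% interval from -0.56 to 0.58, wide enough to hold a change of the size seen for Flt4. Flt1 measured 7.89, 10.4 and 8.29 RPKM in Cort+/+ and 9.05 and 8.19 RPKM in Cort-/- BECs under NX/NG. Under OGD-R it measured 11.7, 9.68 and 10.4 RPKM in Cort+/+ and 8.84 and 9.46 RPKM in Cort-/-, both below all 3 Cort+/+ libraries. The log2 fold changes were -0.03 (95% interval -0.38 to 0.32) and -0.21 (-0.49 to 0.07), with limma adjusted p-values of 0.942 and 0.978. Values per gene do not separate membrane-bound from soluble Flt1.

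Nrp1 was the only member called in any comparison, and only by limma-voom. It measured 16.1, 17.8 and 15.3 RPKM in Cort+/+ and 12.2 and 12.1 RPKM in Cort-/- BECs under NX/NG. The OGD-R libraries held 19.9, 15.6 and 16.8 RPKM in Cort+/+ and 13.8 and 17.5 RPKM in Cort-/-. The genotypes were apart under NX/NG and overlapped under OGD-R. Under NX/NG the log2 fold change was -0.42 ± 0.077 (SE, limma adjusted p = 0.265), a fold of 0.745. The limma-voom fit gave -0.43 ± 0.075 (SE) with an adjusted p of 0.0470, and the adjusted p ran from 0.0470 to 0.563 over all alternatives. Under OGD-R the log2 fold change was -0.16 (95% interval -0.55 to 0.23), and the genotypes' responses to OGD-R differed by 0.26 ± 0.18 (SE, limma interaction, adjusted p = 1.00).

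Nrp2 measured 9.68, 10.9 and 11.6 RPKM in Cort+/+ and 12.8 and 11.3 RPKM in Cort-/- BECs under NX/NG. Under OGD-R it measured 12.8, 11.003 and 11.4 RPKM in Cort+/+ and 13.3 and 10.7 RPKM in Cort-/-. In GENCODE vM21, Nrp2 overlaps the antisense gene Gm29083 and the same-strand gene Gm37121, Nrp1 holds Mir1903, and whether the counting used strand is not given in the sources used here. The genotypes overlapped for Nrp2 in both environments, and its log2 fold change was 0.17 (95% interval -0.09 to 0.43) under NX/NG and 0.03 (-0.31 to 0.36) under OGD-R. The ratio of Nrp1 to Nrp2, both per length, was 1.31 to 1.67 in Cort+/+ NX/NG, 0.952 and 1.07 in Cort-/- NX/NG and 1.42 to 1.55 in Cort+/+ OGD-R BECs. In Cort-/- OGD-R BECs it was 1.04 in replicate 1 and 1.64 in replicate 3, the library low in ribosomal RNA.

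**Figure D3:**
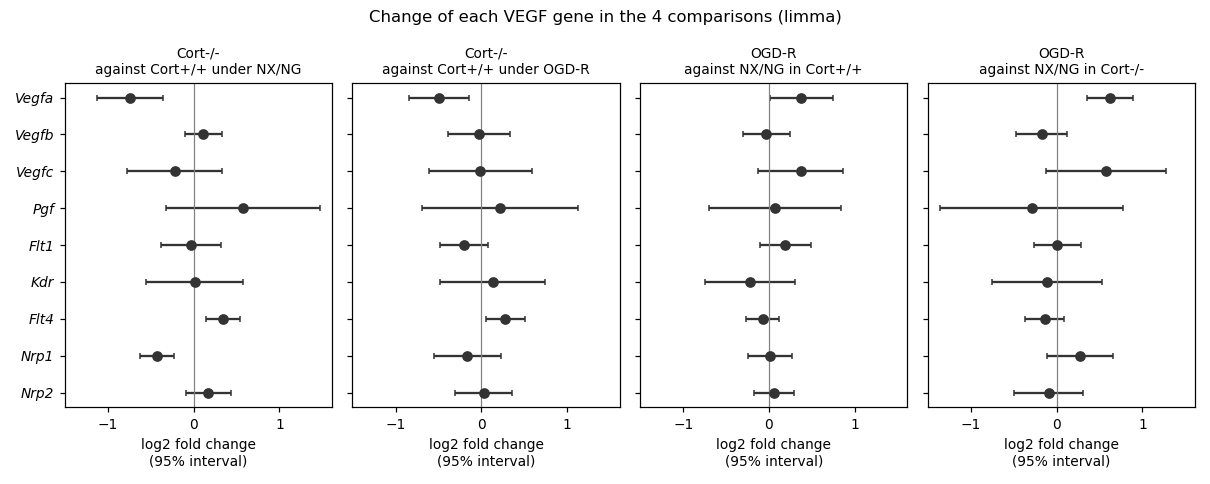
Log2 fold change (horizontal axes) of the 9 VEGF genes in the 4 comparisons, with the limma 95% interval as the bar. Intervals apart from 0 were those of Vegfa in all 4 comparisons, of Flt4 in both genotype comparisons and of Nrp1 under NX/NG, and no member had an adjusted p of at most 0.05 by limma.

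Counts of members were read against all genes. Under NX/NG, the genotypes did not overlap for 3 of 9 members, against 32.7% of the 14220 genes that reached 1 RPKM in 2 or more libraries, so the members' share was near the background. For OGD-R it was again 3 of 9 (Flt4 higher, Vegfa and Flt1 lower), against 16.2%. After OGD-R, 0 of 9 did not overlap in Cort+/+ BECs against 12.7% of genes, and 5 of 9 in Cort-/- BECs (Vegfa, Vegfc and Nrp1 higher, Vegfb and Flt4 lower) against 34.2%. At an unadjusted limma p under 0.05, the genotype comparison took 3 members under NX/NG against 8.39% of genes, and 2 under OGD-R against 3.42%. Fitted only to genes that reached 1 RPKM in 2 or more libraries, it took 1873 of 14220 and 533 of 14325 genes. By limma-voom it took 4 members under NX/NG, beside 3288 of 29965 genes, and 2 under OGD-R, beside 1204 of 29775. The response to OGD-R took 1 member in Cort+/+ BECs against 5.48% and 1 in Cort-/- BECs against 4.08%. The interaction took 0 against 2.85%, by limma-voom also 0. Fitted only to genes that reached 1 RPKM in 2 or more libraries, these 3 comparisons took 959 of 14450, 539 of 13998 and 265 of 14855 genes by limma.

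At an adjusted p of at most 0.05, limma called 0 members in any comparison. It called 0% of genes for the genotypes under NX/NG, 0% under OGD-R, 0.0332% (9 genes) for OGD-R in Cort+/+, 0% in Cort-/- and 0.011% (3 genes) for the interaction. By limma-voom, 1 member, Nrp1, was called under NX/NG, against 0.414% of genes (124 genes). The other limma-voom comparisons called 0 members, against 0.0168% of genes under OGD-R, 0.00369% for OGD-R in Cort+/+, 0% in Cort-/- and 0% for the interaction.

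Marker sums of other cells differed between the genotypes for some lists and environments and overlapped for others. The fibroblast and leptomeningeal list (8 of 8 genes in the data, led by Col1a1, Col3a1 and Col1a2) summed to 198 to 287 RPKM in Cort+/+ and 87.1 to 126 RPKM in Cort-/- BECs under NX/NG, and to 237 to 351 against 204 to 259 RPKM under OGD-R, with 4 or 5 of the 8 averaging 1 RPKM or more. The pericyte list (8 of 8 genes) summed to 21.6 to 26.6 against 10.5 to 13.1 RPKM under NX/NG and to 19.6 to 26.1 against 17.8 to 22.7 RPKM under OGD-R, with 5 of the 8 averaging 1 RPKM or more and Kcnj8 at 0 in Cort-/- OGD-R BECs. The lymphatic list (5 of 6 genes) summed to 20.1 to 25.1 against 5.61 to 7.08 RPKM under NX/NG and to 22.6 to 29.1 against 6.05 to 6.78 RPKM under OGD-R. Pdpn gave 18.1 to 26.8 RPKM of it in Cort+/+ and 2.60 to 4.59 RPKM in Cort-/- BECs, and Ccl21a was not listed or at 0. Lyve1 went the other way, at 1.36 to 1.89 RPKM in the 6 Cort+/+ and 2.11 to 2.64 RPKM in the 4 Cort-/- libraries. The endothelial list summed to 966 to 1223 RPKM in Cort+/+ and 1219 to 1343 RPKM in Cort-/- BECs under NX/NG. Under OGD-R it summed to 1032 to 1203 against 1107 to 1428 RPKM, and the genotypes overlapped both times. The smooth muscle list also overlapped, at 1449 to 1777 against 1300 to 1556 RPKM under NX/NG and 1332 to 1694 against 995 to 1482 RPKM under OGD-R. The epithelial list summed to 4.22 to 50.4 against 5.69 to 14.3 RPKM under NX/NG. Under OGD-R it summed to 1.89 to 8.65 against 9.57 to 37.2 RPKM. The part of these lists in the values of Vegfa, Nrp1 and Flt4 was not tested.

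The wider pathway was read from 6 lists. Under NX/NG, limma called 0 of the 133 listed genes that were tested, and limma-voom called 3, each lower in Cort-/- BECs. Of all 29965 genes, limma called 0 and limma-voom 124, of which 105 were lower. Adamts1, which encodes a matrix protease able to bind VEGF-A and listed among transcripts induced by VEGF, measured 16.3, 15.2 and 13.9 RPKM in Cort+/+ and 8.25 and 8.10 RPKM in Cort-/- BECs (log2 fold change -0.89, limma-voom adjusted p = 0.0052). Ldha, a glycolytic enzyme and hypoxia target, measured 155, 145 and 156 RPKM against 121 and 117 RPKM (log2 fold change -0.35, limma-voom adjusted p = 0.018). Nr2f2, which encodes the venous regulator COUP-TFII and stood in the list of transcription regulators, measured 5.54, 5.14 and 4.10 RPKM against 2.79 and 2.51 RPKM (log2 fold change -0.89, limma-voom adjusted p = 0.032). In each case the genotypes did not overlap, as for 32.7% of the 14220 genes that reached 1 RPKM in 2 or more libraries. These genes were picked by their limma-voom call on the same libraries, so the lack of overlap adds no support. The limma adjusted p of these genes was 0.0828 for Adamts1 and 0.253 for both Ldha and Nr2f2.

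Within the signalling list, downstream of the receptors, 8 of 40 genes had an unadjusted limma p under 0.05 under NX/NG, 6 higher and 2 lower in Cort-/- BECs, beside 8.39% of all genes and 1873 of the 14220 that reached 1 RPKM in 2 or more libraries. By limma-voom there were 11, 9 higher and 2 lower, beside 3288 of all 29965 genes. The 3 with the lowest p were Src (log2 fold change 0.20), a kinase recruited by Kdr, Nos3 (0.37), the endothelial nitric oxide synthase, and Shb (0.26), an adaptor of Kdr. Nos3 was also higher under OGD-R (0.44 ± 0.084, SE, limma adjusted p = 0.510), and lower after OGD-R in Cort+/+ (-0.34) and in Cort-/- BECs (-0.27). The median log2 fold change of the 37 signalling genes that averaged 1 RPKM or more was 0.04 under NX/NG and 0.01 under OGD-R, beside 0.0088 and -0.0090 over all genes of that level.

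Among transcripts induced by VEGF, 8 of 30 had an unadjusted limma p under 0.05 under NX/NG, 2 higher and 6 lower. The share was 8.39% of all genes and 1873 of the 14220 that reached 1 RPKM in 2 or more libraries. The list's median was 0.16 over 24 genes. By limma-voom the balance turned, with 16 of 30, 9 higher and 7 lower, beside 3288 of all 29965 genes. Beside Adamts1, those with the lowest p were the immediate early genes Nr4a1 (log2 fold change -0.91 ± 0.19) and Egr1 (-0.64 ± 0.15, SE). Egr1 measured 6.60, 6.14 and 5.22 RPKM in Cort+/+ and 3.36 and 4.30 RPKM in Cort-/- BECs under NX/NG, and 9.81, 10.001 and 11.4 RPKM against 8.78 and 9.23 RPKM under OGD-R. Like Vegfa, both were lower in Cort-/- BECs in either environment and gained after OGD-R in either genotype. The gain was 0.72 ± 0.11 for Egr1 and 0.72 ± 0.16 for Nr4a1 in Cort+/+, and 1.15 ± 0.15 and 1.04 ± 0.18 in Cort-/- BECs (log2, SE), with limma adjusted p-values from 0.302 to 0.724.

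In the lists of neuropilin partners and of ligand processing, 0 genes were called by limma or limma-voom under NX/NG. There, 2 of 12 and 3 of 10 had an unadjusted limma p under 0.05. The share was 8.39% of all genes and 1873 of the 14220 that reached 1 RPKM in 2 or more libraries. By limma-voom there were 7 and 5, beside 3288 of all 29965 genes. The genes with the lowest p are given. Sema3f, a semaphorin that signals through Nrp2, was higher in Cort-/- BECs under NX/NG (log2 fold change 0.37 ± 0.12, SE, limma adjusted p = 0.518), and its co-receptor Plxna1 had -0.23 and Plxna3 -0.54. Vegfd, a ligand of Flt4 that is not among the 9 genes, measured 4.13, 2.97 and 2.81 RPKM in Cort+/+ and 1.58 and 1.83 RPKM in Cort-/- BECs under NX/NG. For OGD-R the values were 2.48, 3.10 and 3.06 RPKM against 1.31 and 2.13 RPKM. The genotypes did not overlap in either environment, with log2 fold changes of -0.90 ± 0.20 and -0.74 ± 0.25 (SE, limma adjusted p = 0.351 and 0.978). Of genes that reached 1 RPKM in 2 or more libraries, 32.7% did not overlap under NX/NG and 16.2% under OGD-R. Adamts14, related to the protease that helps to mature VEGF-C, had -0.76 ± 0.13 under NX/NG (SE, limma adjusted p = 0.252), and Ccbe1, the cofactor of that maturation, had 0.35 ± 0.12 (SE, limma adjusted p = 0.526).

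Hypoxia-induced transcripts as a group did not rise after OGD-R, whereas Vegfa did by a gain that was not called. Of 20 such genes, 8 had a higher value after OGD-R in Cort+/+ and 9 in Cort-/- BECs. The shares were 51.6% and 47.9% over all genes that averaged 1 RPKM or more. Median log2 fold changes of the list were -0.01 and -0.07, beside 0.0061 and -0.0091 over all genes of that level. The glycolytic enzyme Hk2 had the lowest p of the list in both genotypes, with 0.34 ± 0.16 in Cort+/+ and 0.60 ± 0.16 in Cort-/- BECs (SE, 95% intervals -0.05 to 0.73 and 0.16 to 1.04). Between genotypes under NX/NG the same list split evenly, 10 higher and 10 lower. In it, 4 genes had an unadjusted limma p under 0.05. The share was 8.39% of all genes and 1873 of the 14220 that reached 1 RPKM in 2 or more libraries. These 4 were lower in Cort-/- BECs, among them Ldha, Hk2 (-0.57) and P4ha1 (-0.18). In contrast, limma-voom gave 5, 2 higher and 3 lower, beside 3288 of all 29965 genes.

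In the list of transcription regulators, 5 of 21 genes had an unadjusted limma p under 0.05 under NX/NG, 3 higher and 2 lower. The share was 8.39% of all genes and 1873 of the 14220 that reached 1 RPKM in 2 or more libraries. The list median was 0.18. By limma-voom there were 7, 5 higher and 2 lower, beside 3288 of all 29965 genes. Klf4, which restrains endothelial activation, measured 15.6, 15.0 and 10.8 RPKM in Cort+/+ and 8.34 and 5.78 RPKM in Cort-/- BECs (log2 fold change -0.96 ± 0.23, SE). Erg, an endothelial ETS factor, measured 64.5, 66.2 and 91.6 RPKM against 100.3 and 109 RPKM (0.51 ± 0.17, SE). Under OGD-R, Nr2f2 again lay lower in Cort-/- BECs without overlap, at 3.62 and 3.93 RPKM against 5.08 to 5.09 RPKM (log2 fold change -0.42 ± 0.10, SE, limma adjusted p = 0.801). Of genes that reached 1 RPKM in 2 or more libraries there, 16.2% did not overlap. The genotypes overlapped under OGD-R for Klf4, at 7.80 and 13.9 RPKM in Cort-/- against 13.8 to 17.7 RPKM in Cort+/+ BECs. They also overlapped for Erg, at 107 and 83.8 against 70.8 to 87.3 RPKM.

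**Figure D4:**
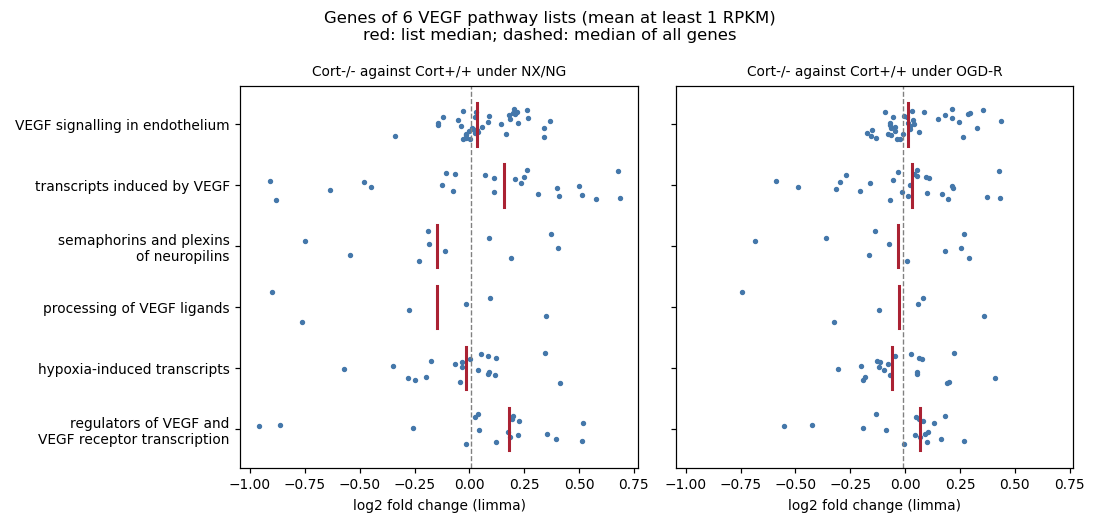
Log2 fold change of Cort-/- over Cort+/+ (horizontal axes, limma) for genes of the 6 pathway lists that averaged 1 RPKM or more, under NX/NG (left) and OGD-R (right); dots are genes, red bars list medians, and the dashed line is the median of all genes. List medians lay between -0.15 and 0.18 under NX/NG and between -0.06 and 0.07 under OGD-R.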

How the data were processed

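RNA-seq values of 10 of the 12 listed samples were analysed. The authors deposited RPKM per gene and library, in one table per environment, from their reanalyzerGSE workflow, in which genes of low expression were retained, and edgeR is named in the submitters' processing notes. Aligner, genome build and annotation are not given in the sources used here. Gene length in bases accompanies the RPKM. RPKM times length was a whole multiple of 1 step per library for 99.996% to 100% of the values above 0 (tolerance 0.05), which gave back whole reads, and library totals differed by at most 0.0354%. Columns with the authors' own fold changes, p-values and mean abundance, others that sort genes into expression categories, and the 2 tables of selected genes were not used.

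Genotypes were compared within each table by limma 3.58.1 (R 4.3.3) with a variance trend on log2(RPKM + 0.1), over every gene with a value above 0, with Benjamini-Hochberg adjustment over all genes and calls at an adjusted p of at most 0.05. Fold changes are on that scale, which understates those of low genes. For OGD-R against NX/NG and for the interaction, the recovered reads, over genes found in both tables, were scaled together by a trimmed mean of M values. All mapped libraries were used under OGD-R. Limma-voom on the recovered reads, a pseudocount of 1, a filter that asked for 1 RPKM in 2 or more libraries, quantile normalization, library size without ribosomal RNA, a replicate block, all groups in one fit and leaving out libraries were the alternatives. The fits were tested on simulated data. The labels speak of independent replicates, so that n counts cultures of pooled mice. Members and gene lists were chosen with earlier results of these data known. Beside the members, the text names, from each list, genes called by either tool and the 3 with the lowest limma p per comparison, and, for each member, the 3 genes of highest Pearson r over 10 libraries, of which a selection is printed.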

Additional observations from a re-analysis of the deposited data

How the results depend on the processing

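Vegfa kept its direction in all 5 comparisons under every alternative, as did Flt4 in the 4 comparisons of groups and Nrp1 for the genotypes under NX/NG. A kept direction did not single out these genes. Between genotypes, Vegfb, Vegfc, Pgf and Nrp2 also kept theirs under NX/NG, and Flt1 under OGD-R. Vegfc did so in the response to OGD-R of both genotypes. Nrp1 under NX/NG was called only by limma-voom (log2 fold change -0.43). The numbers of genes called depended on the setting. For the genotypes under NX/NG, 0 genes became 20 with a pseudocount of 1, 124 by limma-voom and 4 with all groups in one fit, and 0 to 683 on leaving out 1 library. For the genotypes under OGD-R, 0 became 5 by limma-voom and 7 with all groups in one fit, and 0 to 710 on leaving out 1 library. The high counts arose where 1 of the Cort-/- libraries was left out, 543 and 683 under NX/NG (517 and 659 of them higher) and 626 and 710 under OGD-R, and the lone library left is then assumed to vary like the other group. For OGD-R in Cort+/+, 9 became 5 with a pseudocount of 1, 1 by limma-voom, and 0 with the filter, with all groups in one fit, without the libraries low in ribosomal RNA and on leaving out any 1 library. For the interaction, 3 became 0 with a pseudocount of 1, with the filter, by limma-voom and without the libraries low in ribosomal RNA, and 0 to 8 on leaving out 1 library.

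Deviations of same-numbered Cort+/+ libraries from their group means correlated at -0.03, -0.06 and 0.11 between environments. With means of 3 libraries, these values cannot decide whether replicate numbers pair the samples. With the number as a block, 0 genes were called in each comparison that could be fitted. For OGD-R in Cort-/- no paired analysis was possible because the groups share too few numbers to leave residual degrees of freedom. The block reversed Kdr under NX/NG (-0.0093) and, under OGD-R, Vegfb (0.079), Vegfc (0.061) and Nrp2 (-0.019).

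Other values reversed as follows, on the log2 scale. Library size without ribosomal RNA gave -0.0070 for Kdr under NX/NG, and quantile normalization 0.0037 for Vegfc under OGD-R. Without the libraries low in ribosomal RNA, the genotype difference under OGD-R was 0.027 for Vegfb and 0.14 for Vegfc, the response in Cort+/+ was -0.082 for Nrp1 and -0.0084 for Nrp2, the response in Cort-/- was 0.18 for Pgf, -0.040 for Flt1 and 0.066 for Nrp2, and the interaction was 0.021 for Flt4 and 0.075 for Nrp2. The cause was not tested. On leaving out 1 library, the genotype difference under NX/NG ran from -0.10 to 0.089 for Flt1 and from -0.18 to 0.20 for Kdr. Under OGD-R it ran from -0.13 to 0.079 for Vegfb, -0.18 to 0.080 for Vegfc, -0.26 to 0.70 for Pgf, -0.12 to 0.39 for Kdr, -0.33 to 0.0086 for Nrp1 and -0.13 to 0.18 for Nrp2. The response in Cort+/+ ran from -0.14 to 0.077 for Vegfb, -0.20 to 0.36 for Pgf, -0.082 to 0.092 for Nrp1 and -0.014 to 0.12 for Nrp2. The response in Cort-/- ran from -0.77 to 0.18 for Pgf, -0.062 to 0.079 for Flt1, -0.36 to 0.15 for Kdr and -0.25 to 0.066 for Nrp2. The interaction ran from -0.84 to 0.11 for Pgf, -0.14 to 0.37 for Kdr and -0.31 to 0.0087 for Nrp2.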

Other observations

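Each member was set beside the genes whose log2 values followed it most closely over the 10 jointly scaled libraries, among 14855 genes. Vegfa was followed by Mmp14, a membrane-bound matrix metalloproteinase (Pearson r = 0.974, 25.7 to 42.9 RPKM), Vasn (0.970) and Lrrc4c (0.968). Nrp1 was followed by Map1a (0.961) and Ptgfrn (0.961), Flt4 by Tns3 (0.975), Slfn3 (0.962) and Msn (0.957), and Kdr by Plcd3 (0.960), Gdf15 (0.950) and Eps8l2 (0.946). Pgf was followed by Eif2b2, a subunit of a translation initiation factor (0.987, 45.6 to 81.5 RPKM), Ccdc134 (0.986) and Slc4a1ap (0.985). The libraries share genotype and environment, so these values describe likeness over 10 libraries and carry no p.

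Over the same libraries, 36 pairs of members were compared. Adjusted by Benjamini-Hochberg over the 36, permutation p-values (two-sided, 100000 permutations) were 0.0446 by Pearson for 3 pairs: Vegfa and Flt4 (r = -0.85, Spearman -0.82, unadjusted p = 0.0021 and 0.0059), Vegfa and Nrp1 (r = 0.85, Spearman 0.73, unadjusted p = 0.0026 and 0.021) and Pgf and Nrp1 (r = -0.83, Spearman -0.85, unadjusted p = 0.0037 and 0.0027). By Spearman's rho none of the 3 passed (adjusted p = 0.106, 0.210 and 0.0961). Without the 2 libraries farthest from the median of the gene named first, r was -0.64, 0.61 and -0.70. With group means removed, r was -0.27 for Vegfa and Flt4, 0.66 for Vegfa and Nrp1 and -0.86 for Pgf and Nrp1. The libraries share groups, so part of each pooled r is the difference between groups. The permutations moved values freely across groups, so their p-values include that part and do not test a link within groups.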
